A study of Mus musculus with 2 samples.

Results

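Conventional CD4 T cells of the mouse lung were taken from 2 libraries of single-cell RNA sequencing, 1 labelled control and 1 labelled fibrosis. A cell was a member if at most 10% of its UMIs (unique molecular identifiers, each standing for 1 captured transcript) fell on mitochondrial genes, if it held at least 2 UMIs of the CD3 chains Cd3d, Cd3e and Cd3g together and at least 1 of Cd4, and if it held none of Cd8a, Cd8b1, the NK receptor gene Ncr1 or the B cell gene Cd79a. It also had fewer than 2 of the 6 genes Gata3, Il1rl1, Icos, Ikzf2, Klrg1 and Cxcr6, which mark regulatory T cells, innate lymphoid cells and effector T cells. The rule found 54 of 8280 control cells and 60 of 7173 fibrosis cells, 114 of 15453 in all. Members were thus chosen by measured transcripts, and the levels of its own genes are given as a description only.

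Conventional CD4 T cells recognise peptides on MHC class II through a receptor that signals through the CD3 chains. Naive cells recirculate between blood and lymphoid organs under the transcription factors TCF1 (encoded by Tcf7) and LEF1, with the homing receptor CCR7. After activation they can become effector or memory cells, which settle in tissues such as the lung and can take on helper programmes named by their cytokines.

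Each library came from the whole lung of 1 male C57Bl/6J mouse aged 3 months. Titanium dioxide (TiO2) or crocidolite asbestos, a fibre that scars the lung, was given into the trachea at 100 µg, and lungs were taken 14 days later. Both particles stand in the protocol of both samples, and the mouse given each is not stated. The libraries are named by their labels, control and fibrosis. With 1 mouse per group, no difference below has a replicate check and none was tested. The 95% intervals reflect counting error alone, not how mice vary.

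The libraries held 36632591 and 38090308 UMIs. They shared 89 cell barcodes. The barcodes of 2 members also occurred in the other library, and in neither case was the other cell a member. Members held a median of 2291.5 UMIs in the control library (range 1495 to 3488) and 2511.5 in the fibrosis library (range 1951 to 12449). These fell on a median of 849 and 875 genes. Of the fibrosis members 6 held over 5000 UMIs, and of the control members 0 did.

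Most members stood close to the edge of the rule. Cd4 was seen as exactly 1 UMI in 44 of 54 control and 53 of 60 fibrosis members, and the CD3 chains as exactly 2 UMIs in 9 and 10. None of the 6 genes was detected in 40 control and 39 fibrosis members and exactly 1 in 14 and 21. Gata3, a regulator of helper type 2 and innate lymphoid cells, was that gene in 3 control and 10 fibrosis members, the costimulatory receptor gene Icos in 5 and 7, and Ikzf2 in 4 and 4. Just outside the rule stood 1 control and 5 fibrosis cells with 1 UMI of the CD3 chains, 274 and 224 cells with no Cd4 UMI, and 5 and 3 cells with exactly 2 of the 6 genes. Cd4 UMIs were rare in cells that should lack the gene, in 1 of 1003 control B cells (0.0997%) and 3 of 534 fibrosis B cells (0.562%), whose medians were 2028 and 2801.5 UMIs.

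Some members carried transcripts of another lineage. A member was called mixed if it held at least 20 UMIs of 1 marker list of another lineage (antigen-presenting, myeloid, epithelial, endothelial, stromal, or red cell and platelet) at over 3 times the median share of its library's members. There were 2 mixed cells among the control members (3.70%, interval 0.452% to 12.7%) and 8 among the fibrosis members (13.3%, 5.94% to 24.6%). They held 3.67% of the control members' UMIs and 25.2% of the fibrosis members' UMIs. In 4 of the fibrosis cells the surfactant gene Sftpc, a product of alveolar type 2 cells, stood at 1428, 540, 395 and 202 UMIs, against a median of 4 over the fibrosis members. Another held 83 UMIs of Cd74, the invariant chain of MHC class II, and another 20 of the complement gene C1qb with 52 of Cd74. In each library 1 mixed cell held the neutrophil gene S100a8, at 136 and 208 UMIs, and the other control cell held 29 UMIs of Mgp and 26 of Gsn, genes of stromal cells. By a doublet score (scrublet), 1 control and 5 fibrosis members were among the top 5% of their library, and these were all mixed cells. Among CD8 T cells the mixed share was 12.5% (control) and 14.7% (fibrosis). The main comparisons below are therefore given with and without the mixed cells, which leaves 52 members in each library.

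**Figure D1:**
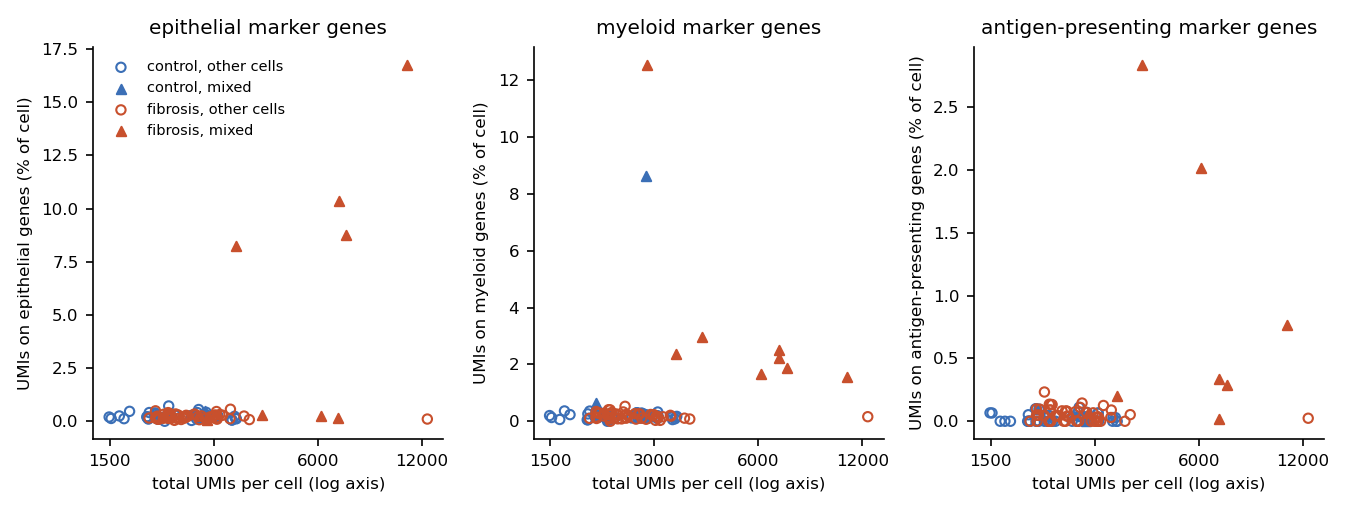
Share of each member's UMIs on 3 marker lists of other lineages (vertical axes, percent of the cell's UMIs) against its total UMIs (log axis), for the control (blue) and fibrosis (orange) libraries. Filled triangles are the mixed cells and open circles the other members; of the 6 fibrosis members over 5000 UMIs, only the deepest, at 12449 UMIs, is not mixed.

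A low level of airway and alveolar transcripts was present in nearly every member. Scgb1a1, a secreted protein of club cells, was found in 54 of 54 and 60 of 60 members at a median of 14 and 11 UMIs, and Sftpc in 53 of 54 and 58 of 60. In the members that were not mixed, the Sftpc level was 1656 CPM (UMIs scaled to 1000000 per class; interval 1441 to 1895) in the control and 1443 CPM (1253 to 1653) in the fibrosis library, so the intervals overlapped. Scgb1a1 and Sftpc UMIs were found in 100% and 97.3% of control B cells and in 100% and 99.3% of fibrosis B cells too.

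The members carried the naive T cell factors Lef1 (chromosome 3, 131110471 to 131224356, GRCm38) and Tcf7 (chromosome 11, 52252371 to 52283014), which the rule did not use. Lef1 stood at 369 CPM (273 to 487) in the control and 261 CPM (193 to 343) in the fibrosis members, Tcf7 at 384 CPM (286 to 505) and 193 CPM (136 to 266). In B cells Lef1 stood at 5.01 and 2.96 CPM and Tcf7 at 2.51 and 1.48 CPM. A UMI of at least 1 of these genes was found in 42 of 54 control members (77.8%, 64.4% to 88.0%) and 38 of 60 fibrosis members (63.3%, 49.9% to 75.4%). Without the mixed cells the shares were 76.9% and 59.6%. Lef1, Tcf7 and Ccr7 were all without a UMI in 5 control and 11 fibrosis members. CD8 T cells carried both genes too, Lef1 at 224 and 238 CPM and Tcf7 at 223 and 221 CPM. The 2 genes thus bear out a T cell of naive type for most members. The CD4 part of the label rests on Cd4 and the lack of CD8 UMIs, which the rule itself set. The 3 listed gamma-delta T cell genes that the files hold were at 0 UMIs in the members of both libraries.

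Conventional CD4 T cells made up shares of the 2 libraries whose intervals overlapped. They were 0.673% of control cells (0.506% to 0.877%) and 0.864% of fibrosis cells (0.660% to 1.11%), a difference of 0.191 percentage points whose interval ran from -0.0891 to 0.483, out of the 8026 control and 6945 fibrosis cells with at most 10% mitochondrial UMIs. Without mixed cells the difference was 0.101 points. Of all cells with at least 2 CD3 UMIs, which numbered 735 and 763, they were 7.35% and 7.86%. The Cd4-positive T cells that the rule left out because they held 2 or more of the 6 genes numbered 11 among control and 25 among fibrosis cells, 0.137% (0.0684% to 0.245%) and 0.360% (0.233% to 0.531%) of cells. Their median depths differed as well, at 6382 and 2717 UMIs, and the part of depth in that difference was not tested. A further 314 control and 348 fibrosis T cells held neither a Cd4 nor a CD8 UMI, and CD4 T cells whose Cd4 transcript was not captured are not counted as members.

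The profile of the members was compared with that of CD8 T cells, the cytotoxic lineage, taken by the same CD3 threshold with at least 1 UMI of Cd8a or Cd8b1 and none of Cd4. The requirement on the 6 genes did not apply to the CD8 cells. Of 1959 genes measured, 4 were at least 2-fold higher in the CD4 members in both libraries (0.204%) and 28 at least 2-fold lower (1.43%), the rule's own genes left out. Without mixed cells in either class the counts were 4 of 1415 (0.283%) and 18 of 1415 (1.27%). The values that follow are without mixed cells, as log2 ratios of CD4 over CD8 in the control and then the fibrosis library.

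The cytotoxic and NK-type genes were low in the members. Ccl5, a chemokine stored in cytotoxic and memory T cells, stood at -4.01 (-4.63 to -3.45) and -2.79 (-3.19 to -2.42). Nkg7, a cytotoxic granule protein, stood at -3.13 and -1.88, the granzyme gene Gzma at -3.45 and -5.42, the NK receptor gene Klrd1 at -3.90 and -3.10, and the cathepsin gene Ctsw at -2.14 and -2.18. Runx3, the transcription factor that sets the CD8 lineage, stood at -2.44 (-4.34 to -1.05) and -3.03 (-5.33 to -1.45). Gzma rested on 3 control and 1 fibrosis UMI in the members, Runx3 on 4 and 3 and Klrd1 on 2 and 3. The surface antigen gene Ly6c2, named after its values were seen, stood at -2.36 and -6.03. It rested on 14 and 1 UMIs, and its fibrosis interval ran from -11.3 to -3.54.

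Without mixed cells the 4 genes above CD8 T cells were Igfbp4, Tspan32, Ly6a and Ifi27l2a. Tspan32 is in none of the lists and was named after its values were seen. With mixed cells kept in both classes, Ly6a and Ifi27l2a stood at 0.89 and 0.83 in the control library, short of 2-fold. Igfbp4, a growth factor binding protein found in naive T cells, stood at 1.67 (1.28 to 2.05) and 1.38 (1.00 to 1.74), and the tetraspanin gene Tspan32 at 2.41 (1.67 to 3.14) and 1.65 (0.87 to 2.41). Ly6a, which encodes the interferon-inducible antigen Sca-1, stood at 1.41 and 1.91, and Ifi27l2a, another interferon-induced gene, at 1.17 and 2.34. Lower counts gave the same order for Cd40lg and Izumo1r, here as CPM with mixed cells kept in both classes. Cd40lg, the ligand by which helper T cells license B cells, stood at 82.8 CPM (41.3 to 148) in control and 46.9 CPM (21.4 to 89.0) in fibrosis members. In CD8 T cells it stood at 7.36 (3.18 to 14.5) and 4.04 (1.10 to 10.3). Izumo1r, the folate receptor 4 gene of CD4 T cells, stood at 120 (68.8 to 196) and 93.8 CPM (55.6 to 148) against 14.7 (8.42 to 23.9) and 16.2 (9.24 to 26.2). None of these intervals overlapped those of CD8 T cells of the same library.

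**Figure D2:**
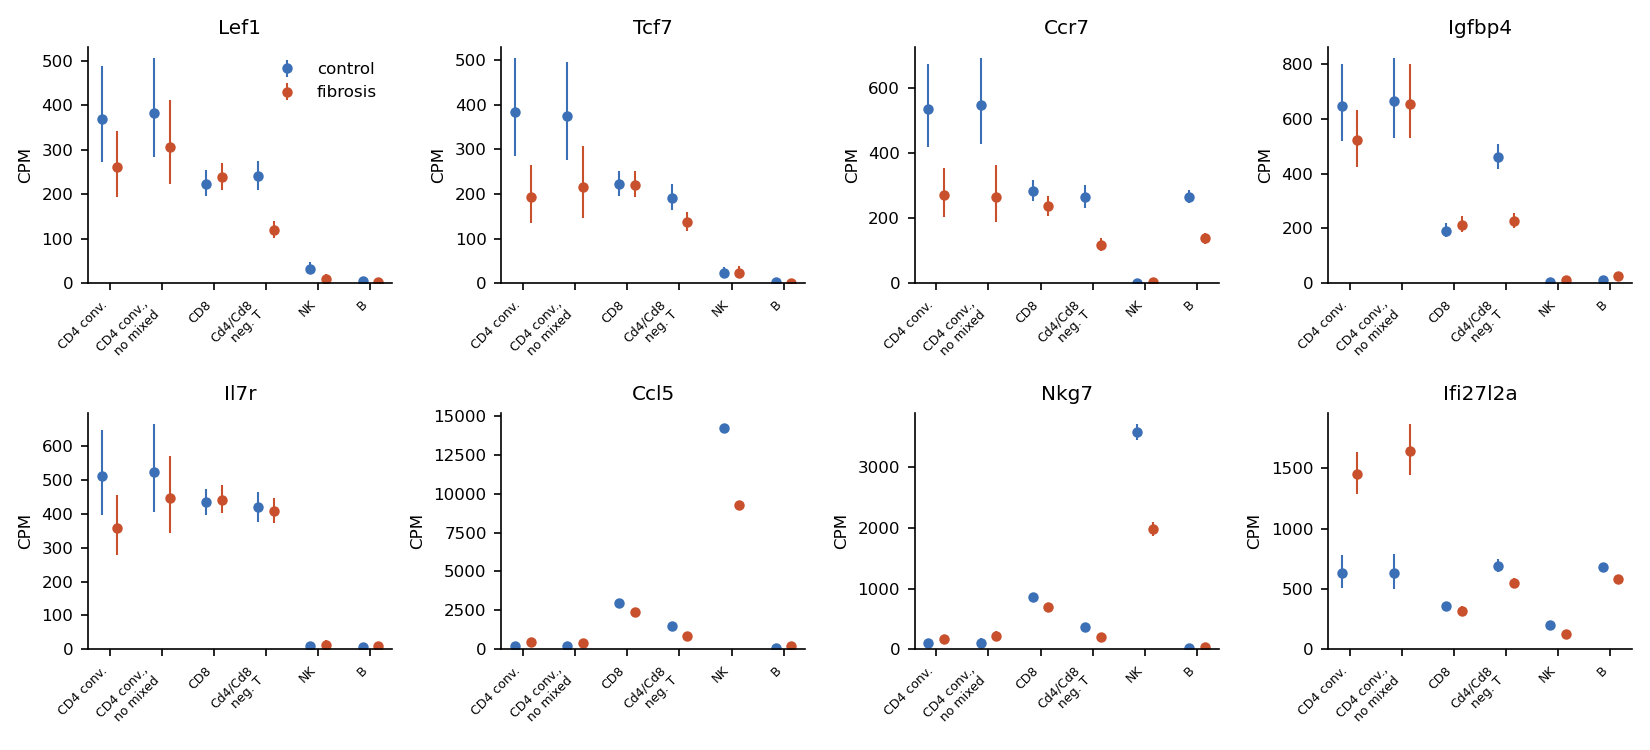
Level of 8 genes (CPM, vertical axes from 0) in conventional CD4 T cells, in the same without mixed cells, and in CD8 T cells, T cells without Cd4 or CD8 UMIs, NK cells and B cells, for the control (blue) and fibrosis (orange) libraries; bars are exact Poisson 95% intervals. Igfbp4 is highest in the CD4 members, Ccl5 and Nkg7 are highest in NK cells, and Ifi27l2a is 632 CPM in control and 1454 CPM in fibrosis members.

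The comparison of the fibrosis with the control members asked which transcripts differed 14 days after exposure. Of 592 genes with at least 50 UMIs over both libraries, 44 were at least 2-fold higher in the fibrosis members (7.43%) and 15 at least 2-fold lower (2.53%). Without mixed cells 16 of 485 were higher (3.3%) and 11 lower (2.27%). A fibrosis member that was not mixed held 12449 UMIs, and without it as well 13 of 458 were higher (2.84%) and 9 lower (1.97%). Of the 44 genes, 24 were still 2-fold higher without the mixed cells and 19 without the deepest cell too, whatever UMIs were left. With the minimum of 50 UMIs kept, these numbers were 15 and 11. Of the 44, 21 were also 2-fold higher in the median of CD8 T, NK and B cells. All 15 lower genes stayed below 0 without the mixed cells, 9 of them past 2-fold.

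Naive and recirculation genes were level or lower in the fibrosis members. Of the 15 measured, 0 were 2-fold higher and 1 was 2-fold lower, with a median log2 ratio (fibrosis over control) of -0.31 against -0.01 over all genes measured. Without mixed cells the median was -0.21 against 0.02, and also without the deepest cell -0.10 against -0.02.

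Ccr7, the receptor that guides T cells into lymph nodes, gave 71 UMIs in 38 of 54 control members and 52 UMIs in 34 of 60 fibrosis members, 534 CPM (417 to 674) and 271 CPM (202 to 355). Its log2 ratio was -0.98 (-1.52 to -0.44), -1.05 (-1.66 to -0.46) without mixed cells and -0.91 (-1.52 to -0.33) without the deepest cell too. The 3 intervals all lay below 0. Ccr7 was lower in other lymphocytes of the fibrosis library too, at -0.27 in CD8 T cells, -1.19 in T cells without Cd4 or CD8 UMIs and -0.95 in B cells. Tcf7 was lower as well, at -0.99 (-1.64 to -0.35), -0.80 (-1.50 to -0.11) and -0.66 (-1.36 to 0.02), with -0.01 in CD8 T cells and -0.48 in T cells without Cd4 or CD8 UMIs. Dapl1, a gene of naive T cells, stood at -1.04 (-1.75 to -0.34), -0.80 and -0.67, against 0.06 in CD8 T cells and -0.84 in T cells without Cd4 or CD8 UMIs.

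The other members of the programme did not share the size of these differences. Lef1 stood at -0.50 (-1.10 to 0.10), or -0.32 without mixed cells, the transcription factor gene Foxp1 at -0.15 (-0.80 to 0.52), or -0.21, and Igfbp4 at -0.31 (-0.74 to 0.12), or -0.02, all with intervals that held 0. The T cell transcription factor gene Ets1 stood on the other side at 0.37 (-0.23 to 0.99), or 0.53 (-0.08 to 1.16) without mixed cells. Il7r, the receptor for the survival cytokine interleukin 7, went from -0.51 with all members to -0.23 (-0.75 to 0.29) without mixed cells.

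Memory and effector genes stood higher in the fibrosis members. Of 9 measured, 6 were at least 2-fold higher and 0 lower, with a median log2 ratio of 1.12. Without mixed cells 3 of 8 were 2-fold higher at a median of 0.97, and without the deepest cell too 3 of 7 at 0.62. Lgals1, which encodes the lectin galectin-1, gave 23 UMIs in 17 control members and 145 UMIs in 25 fibrosis members, with a ratio of 2.13 (1.48 to 2.83). Without mixed cells it was 2.18 (1.5 to 2.93), and without the deepest cell too, which alone held 53 UMIs, 1.33 (0.58 to 2.13). S100a6, a calcium-binding protein gene, stood at 1.11 (0.55 to 1.69), 1.72 (0.99 to 2.51) and 1.32 (0.55 to 2.14). Crip1, which encodes a LIM domain protein high in memory T cells, stood at 1.12, 0.95 and 0.62 (0.28 to 0.97).

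Other genes of the list rested on the deepest cell. Vim, the intermediate filament vimentin, had 53 of its 124 fibrosis UMIs there, and its ratio went from 1.25 and 1.18 to 0.01 (-0.71 to 0.72) without it. Lgals3, galectin-3, went from 2.12 and 1.71 to 0.19 (-1.61 to 2.04). In CD8 T cells of the same libraries, Lgals1 stood at 0.32, Crip1 at 0.43, S100a6 at -0.20 and Vim at -0.07. In the same order, T cells without Cd4 or CD8 UMIs stood at 0.38, 0.32, 0.35 and -0.07. B cells stood at 0.34, 0.35, -0.06 and -0.19, and NK cells at -0.65, -0.37, -0.46 and -0.50.

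**Figure D3:**
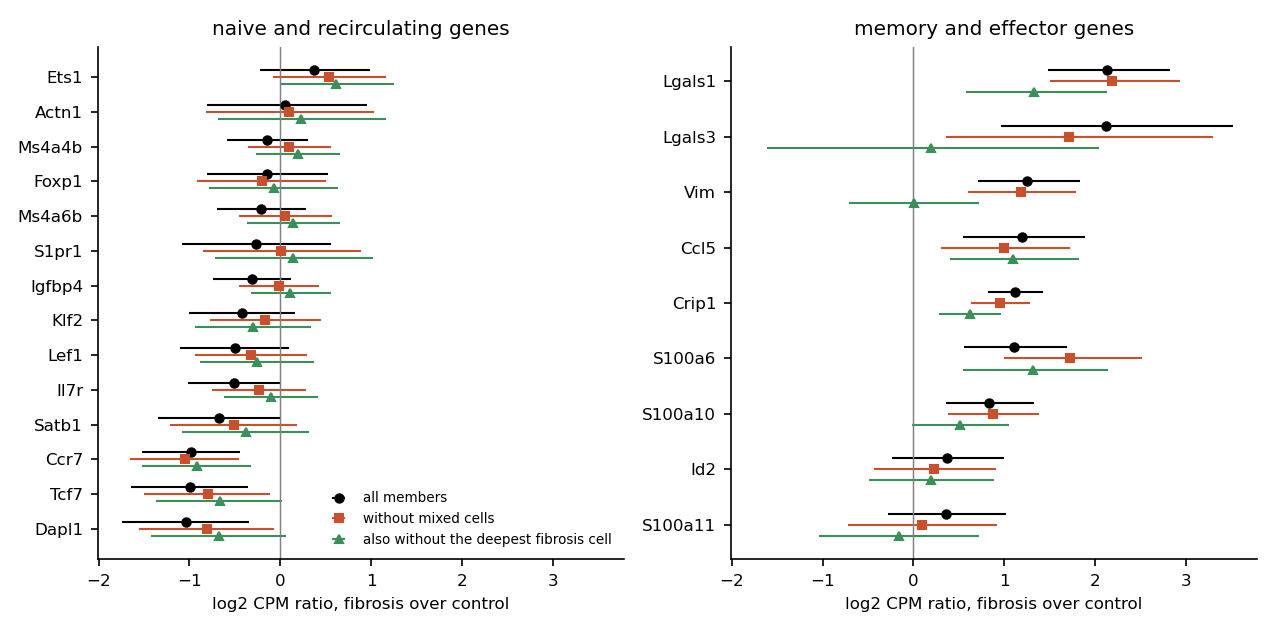
Log2 ratio of CPM, fibrosis over control, for 14 of the 15 measured naive and recirculation genes and the measured memory and effector genes in conventional CD4 T cells; points are all members (black), members without mixed cells (orange) and without the deepest fibrosis cell too (green), and bars are exact 95% intervals of counting error. Ccr7, Tcf7 and Dapl1 lie lowest on the left; on the right Vim and Lgals3 come to 0.01 and 0.19 without the deepest cell, while Lgals1 and S100a6 stay at 1.33 and 1.32.

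The difference was also read cell by cell, at equal depth. Each cell was thinned at random to 1400 UMIs, and the genes detected of the 18 naive and 23 memory genes in the files were counted. In the control library the members held a median of 6 naive and 3 memory genes (ranges 0 to 10 and 0 to 9), and in the fibrosis library a median of 5 and 3 (ranges 0 to 10 and 0 to 11). More naive than memory genes were detected in 43 of 54 control members (79.6%, 66.5% to 89.4%) and 39 of 60 fibrosis members (65.0%, 51.6% to 76.9%). More memory than naive genes were detected in 8 control members (14.8%, 6.62% to 27.1%) and 19 fibrosis members (31.7%, 20.3% to 45.0%). Without mixed cells the shares with more memory genes were 13.5% and 26.9%. The difference in that share was 16.9 points, with an interval of counting error from 1.16 to 31.3, and 13.5 points without mixed cells, with an interval that held 0 (-2.11 to 28.4). The difference in the share with more naive genes was -14.6 points (-29.9 to 1.93). In CD8 T cells the shares with more memory genes were 28.6% and 27.9%. In T cells without Cd4 or CD8 UMIs, which include other kinds of T cell, they were 37.9% (32.5% to 43.5%) and 60.9% (55.6% to 66.1%). In B cells they were 60.4% and 60.5%, so this count is not particular to memory T cells.

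**Figure D4:**
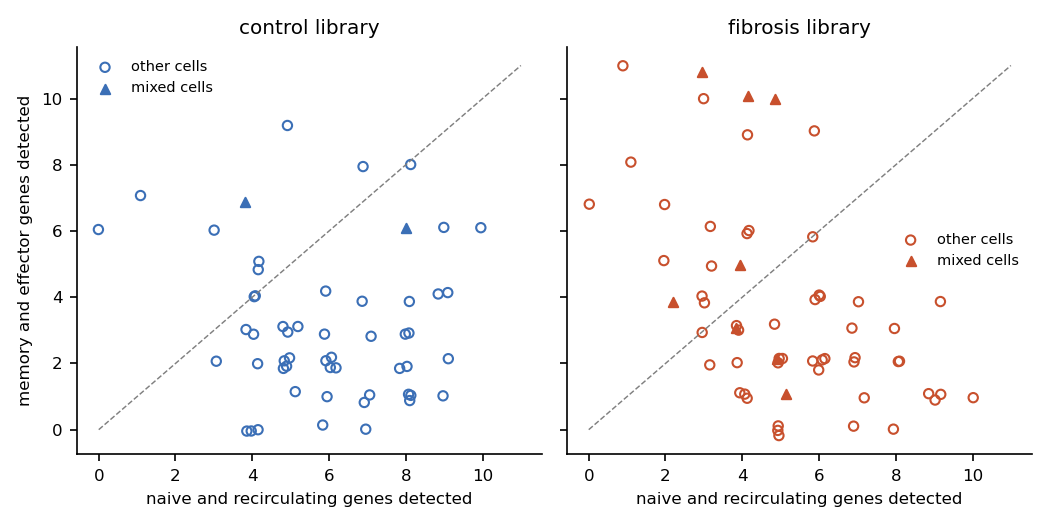
Number of naive and recirculation genes (horizontal axis) and of memory and effector genes (vertical axis) detected in each conventional CD4 T cell after thinning to 1400 UMIs, in the control and fibrosis libraries; points are cells, moved slightly at random so that they do not hide each other, triangles are mixed cells, and the dashed line marks equal numbers. Above the line lie 8 of 54 control cells and 19 of 60 fibrosis cells.

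Of the 18 state genes examined at that depth, 1 had a difference between the libraries whose interval did not hold 0, and the same count was found without mixed cells. It was Ccr7, found in 57.4% of control members (43.2% to 70.8%) and 33.3% of fibrosis members (21.7% to 46.7%). The difference was -24.1 points (-40.3 to -5.79), and -26.9 points (-43.4 to -7.83) without mixed cells. It was smaller after thinning to 1000 UMIs, at -9.26 points (-26.2 to 8.33), and before thinning, at -13.7 points (-30.1 to 3.97), where both intervals held 0. Among 18 intervals, 1 that leaves out 0 can arise from counting error alone. Lef1 was found in 42.6% and 33.3%, Tcf7 in 38.9% and 26.7%, and S1pr1, the receptor for exit from lymph nodes, in 31.5% and 25%. Before thinning Tcf7 was in 59.3% and 36.7%, a difference of -22.6 points (-38.9 to -4.24) whose interval did not hold 0. The hyaluronan receptor gene Cd44, a memory marker, was in 5.56% and 23.3% before thinning, a difference of 17.8 points (4.73 to 30.4). After thinning Cd44 was in 1.85% and 5.00% of members, and in 12.4% and 13.1% of thinned B cells. At equal depth the Cd44 shares of both libraries lay below that of B cells.

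A few cells carried most of the Ccl5. Ccl5 gave 26 UMIs in 6 of 54 control members and 86 UMIs in 13 of 60 fibrosis members, with a ratio of 1.20 (0.55 to 1.89), 0.99 (0.30 to 1.72) without mixed cells, against -0.32 in CD8 T cells and 0.95 in B cells. In the control library 1 cell held 19 of the 26 UMIs. In the fibrosis library the 3 highest cells held 20, 14 and 12, the last a mixed cell. At least 5 Ccl5 UMIs were found in 1 control member and 7 fibrosis members, or 4 without the mixed cells. Of those 4, 3 had no UMI of Lef1 or Tcf7. Ccl5 and Nkg7 were found together in 2 control (3.70%) and 6 fibrosis members (10.0%), with overlapping intervals of 0.452% to 12.7% and 3.76% to 20.5%. In B cells Ccl5 stood at 109 CPM (control) and 209 CPM (fibrosis), against 196 and 448 CPM in the members.

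Ifi27l2a set a few fibrosis members apart. It gave 84 UMIs in 38 of 54 control members, with 7 as the highest value, and 279 UMIs in 41 of 60 fibrosis members, where the 3 highest cells held 81, 49 and 27. The share of members with a UMI was thus alike, at 70.4% and 68.3%, and the median was 1 UMI in both. At least 10 UMIs were found in 0 control and 6 fibrosis members, or 4 without mixed cells. The ratio was 1.20 (0.84 to 1.57), 1.38 without mixed cells and 1.48 without the deepest cell too, against -0.23 in the median of CD8 T, NK and B cells. The other interferon-response genes did not move with it. Of 6 measured in that list 1 was 2-fold higher and 1, the growth regulator gene Slfn2, was 2-fold lower at -1.15 (-1.74 to -0.57), which was -0.91 without mixed cells. Ly6a stood at -0.21 (-0.84 to 0.43), Ifi203 at -0.17 (-0.97 to 0.64) and Shisa5 at -0.17 (-0.50 to 0.16). Without mixed cells these values were -0.44, -0.23 and 0.05. The list's median was -0.19, or -0.38 without mixed cells.

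Genes that define helper subsets were scarce among the members. The rule had left out 11 control and 25 fibrosis Cd4-positive T cells with 2 or more of the 6 genes. Those genes include Gata3, Icos and Ikzf2, so the scarcity is in part set by the rule and does not describe all CD4 T cells of the lung. Of the type 1 list, Ifng, Ccl4, Il12rb2 and Eomes were at 0 UMIs in both libraries, and Tbx21, its master regulator, gave 0 and 2 UMIs. Of the type 2 list Il5, Il13, Ccr4, Ccr8 and Ptgdr2 were at 0, and of the type 17 list Il17a, Il17f, Il22, Il23r and Ccr6. Il21, the cytokine of follicular helper cells, and Il10, a cytokine of regulatory cells, were at 0 as well. A count of 0 allows up to 22.6 CPM in the control and 15.6 CPM in the fibrosis members, so low levels were not detectable at this depth. Summed over each list, UMIs without mixed cells were 54 and 111 for type 1 genes, of which Ccl5 gave 26 and 58, and 14 and 22 for type 17 genes. For regulatory T cell genes they were 32 and 44 and for follicular helper genes 64 and 60, with ratios of 0.29 (-0.39 to 1.00) and -0.26 (-0.79 to 0.27).

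Foxp3, the regulatory T cell factor, was still found among the members, in 3 control cells (5 UMIs) and 2 fibrosis cells (3 UMIs). All 3 control cells and 1 fibrosis cell also held Ikzf2, the 1 gene of the 6 that the rule allowed them. Maf, a transcription factor of effector and follicular helper cells, gave 1 UMI in 1 control member and 19 UMIs in 11 fibrosis members, 1.85% (0.0469% to 9.89%) and 18.3% (9.52% to 30.4%) before thinning. Of those 11, 10 were not mixed. With 20 UMIs in all, it was below the minimum for a ratio, and it was singled out after its values were seen. The NK receptor gene Klrk1 stood the other way, with 7 UMIs in 4 control members and 0 in fibrosis members, where up to 15.6 CPM would be missed.

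Cell cycle transcripts came mostly from 2 deep fibrosis cells. Of 4 measured genes of the list, Hmgb2 and Stmn1 were 2-fold higher, at 2.12 (1.52 to 2.76) and 2.59 (1.37 to 4.10). Hmgb2, a chromatin protein gene of dividing cells, had 79 of its 169 fibrosis UMIs in the cell of 12449 UMIs and 34 in a mixed cell of 10845 UMIs that also held 1428 Sftpc UMIs. Without these and the other mixed cells its ratio was 0.74 (0.02 to 1.48), and that of Stmn1 0.70 (-0.90 to 2.45). The list's median went from 1.49 to 0.68 and to -0.03. At least 2 of the mitotic and DNA synthesis genes Mki67, Top2a and Rrm2 were found in the same 2 cells and in 0 control members. A UMI of any of the 3 genes was found in 0 of 54 control members, which allows a share of up to 5.56%, and in 4 of 60 fibrosis members.

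Early response genes were lower in the fibrosis members. Junb, an AP-1 factor gene switched on within minutes of a stimulus, gave 111 UMIs over the control and 67 over the fibrosis members, 835 and 349 CPM. Its ratio was -1.26 (-1.72 to -0.81), -1.25 (-1.78 to -0.74) without mixed cells and -1.18 (-1.72 to -0.67) without the deepest cell too, against -0.23 in the median of CD8 T, NK and B cells. The antiproliferative gene Btg2 stood at -1.24 (-2.02 to -0.49), also -1.24 without mixed cells, and at -0.57 in the other lymphocytes. Of the 9 measured genes of this list, Junb and Btg2 were 2-fold lower and 0 were 2-fold higher, with a median of -0.41, or -0.32 without mixed cells. Of the heat shock genes, Hspa8 stood at -0.43 (-0.72 to -0.14), or -0.32 without mixed cells, and Hsp90ab1 at -0.41 (-0.72 to -0.10), or -0.42. Hsp90aa1 stood at 0.69 (0.06 to 1.34) and at 0.76 without mixed cells, but at 0.27 (-0.47 to 1.01) without the deepest cell too. Fos gave 9 UMIs in each library, too few for a ratio.

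T cell receptor signalling genes were level. Of 7 measured beyond the rule's own genes, 0 passed 2-fold in either direction, with a median of -0.18, or 0.05 without mixed cells. Without mixed cells, Cd28, the costimulatory receptor gene, stood at -0.16 (-0.93 to 0.60), the kinase gene Lck at 0.05 (-0.56 to 0.68) and the adaptor gene Lat at 0.42 (-0.13 to 0.98), all with intervals that held 0. Survival genes lay somewhat lower, with 0 of 6 past 2-fold and a median of -0.56, or -0.37 without mixed cells. Gimap1 and Gimap6, GTPases needed for lymphocyte survival, stood at -0.79 (-1.45 to -0.15) and -0.64 (-1.26 to -0.04) without mixed cells, and Bcl2, which blocks apoptosis, at -0.20 (-0.81 to 0.42). In the other lymphocytes Gimap1 and Gimap6 stood at -0.50 and -0.57. Of 6 glycolysis genes measured 0 passed 2-fold, and Gapdh stood highest at 0.78 (0.31 to 1.26), the same without mixed cells, but at 0.37 (-0.17 to 0.91) without the deepest cell too.

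The largest rises and falls over all genes were mostly of another kind. Of the 12 largest rises, ranked by the bound of the interval nearest 0, 9 were genes best known from alveolar type 2, myeloid or antigen-presenting cells: Cxcl15, Sftpa1, Sftpc, Cd74, Slc34a2, Sftpb, Lyz2, Scd1 and Sftpd. Sftpc went from 3.10 to -0.20 (-0.48 to 0.08) without mixed cells, Lyz2 from 2.83 to 0.07 (-0.44 to 0.58) and Slc34a2 from 3.73 to 0.06. Cd74 went from 3.57 to 1.22 (0.26 to 2.27), which is 13 UMIs in control and 34 in fibrosis members. The other lymphocytes, from which mixed cells were not removed, were not alike. Cd74 stood at 1.94 in CD8 T cells, 1.44 in NK cells and -0.41 in B cells.

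The other large rises were also seen, to different degrees, in other lymphocytes. The ribosomal RNA-like transcript AY036118 stood at 4.05, or 4.02 without mixed cells, against 4.23 in the other lymphocytes. The histone gene Hist1h2ap was at 0 UMIs in control and 85 UMIs in fibrosis members, 19.6-fold higher with the control set at 3 counts over the group. The lower bound of the interval of its log2 ratio was 3.96. Without mixed cells it gave 11 UMIs, 3.27-fold higher at that setting, with a lower bound of 1.16 for the log2 ratio. Its median log2 ratio in CD8 T, NK and B cells was 3.21. The largest falls were seen in other lymphocytes as well. Rps27rt stood at -2.06 in the members and in the other lymphocytes, Gm10263 at -2.21 and -2.33, Wdr89 at -1.76 and -1.93 and Rpl23a-ps3 at -1.50 and -1.23. Ribosomal gene copies such as Rps27rt and Rpl23a-ps3 can share reads with near-identical genes, and their values are uncertain. Junb was the 1 gene past 2-fold lower after the median ratio of CD8 T, NK and B cells was taken off, among genes with at least 50 UMIs in each of the 4 classes.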

How the data were processed

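The deposited values are raw counts of UMIs per gene and cell, not normalised, per the file headers and their whole-number values. The submitters' processing notes name bcl2fastq, Cell Ranger 1.3 and the build mm10, and the labels' protocols name the 3' V2 chemistry of 10x Genomics. Of 27998 gene identifiers, 27645 (98.7%) occur in GENCODE M21, from which GRCm38 positions were taken. The T cell receptor constant genes Trac, Trbc1 and Trbc2 and other list genes, 16 of 356 in all, were not matched and are not analysed here.

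The members and the 27 gene lists were chosen with earlier results of these data known, so neither is independent support for a difference. UMIs were summed per class and library and scaled to CPM, with exact Poisson intervals, exact conditional binomial intervals for ratios, Clopper-Pearson intervals for shares and Newcombe intervals for differences of shares (Python 3.11.15, scipy 1.17.1, statsmodels 0.14.6). The ratio code was checked on simulated counts. Genes needed 50 UMIs over both libraries, and a 2-fold CPM ratio counted as past the threshold. Named genes are those of the lists, the 12 largest rises and falls, and the 8 genes each way farthest from the other lymphocytes. B cells were taken by 2 UMIs of Cd79a and NK cells by Ncr1, both without CD3 UMIs. Doublets were not removed from the main values; scrublet scores (scanpy 1.11.5) served as an alternative. Mixed cells were defined after the data had been seen, and so were the settings without them. A first version compared UMIs with the median count and also took the cell of 12449 UMIs. It was replaced by shares of UMIs, since that cell's share was ordinary, and its result is that without mixed cells and the deepest cell. No test between the libraries was run. Values of some genes that these rules name are not reported here.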

Additional observations from a re-analysis of the deposited data

How the results depend on the processing

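The count of genes at least 2-fold higher in the fibrosis members, 44, went to 27 without the top 5% of doublet scores, 21 in members with none of the 6 genes, 16 without mixed cells and 13 without the deepest fibrosis cell too. With a minimum of 20 or 100 UMIs it was 161 or 23. The count of lower genes, 15, was 68 and 7 at those minimums, 9 without mixed cells and the deepest cell, and 1 after the median ratio of CD8 T, NK and B cells was taken off. Some list medians changed sign. The cytokine receptor genes, at -0.51 with all members, stood at 0.0104 without the top doublet scores, 0.0243 relative to the other lymphocytes, 0.0452 without mixed cells and 0.155 without the deepest cell too. The epithelial genes went from 3.21 to -0.216 without the top doublet scores, -0.199 without mixed cells and -0.118 without the deepest cell too, where the cell cycle genes went from 1.49 to -0.0336. These settings use fewer cells or fewer genes, and the cause of each move was not tested. The difference in the share of cells ranged from -0.0238 points with at least 2 Cd4 UMIs to 0.414 with no limit on the 6 genes. The setting with no limit takes in cells that are not members, so the interval of the main value does not apply to it. With no limit the shares were 0.810% and 1.22%. The Cd4-positive T cells that the limit left out differed by 0.223 points (0.0643 to 0.404). The interval that held 0 is thus that of the members as the rule takes them. The separate intervals of the 2 libraries overlapped for each of the 18 state genes in every setting run (0 apart).

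The limits are the 54 and 60 members, most with 1 Cd4 UMI, and 1 mouse per group. At 50 UMIs, as for Actn1, the interval of the log2 ratio ran from -0.81 to 0.95, and genes below that minimum were not compared. No paired analysis was possible because each group has 1 sample, and for the same reason no replicate was left out.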
